A study of Mus musculus with 2 samples.

Results

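The synaptotagmins examined here were Syt1, Syt2, Syt3, Syt4, Syt5, Syt6, Syt7, Syt11, Syt13 and Syt17, taken by gene symbol. They are 10 of 55536 annotated genes and 10 of the 17 synaptotagmins in the annotation. All 10 were found in every table. They were measured by total RNA-seq of hippocampus from B6CASTF1/J females, first-generation offspring of a laboratory strain crossed with a wild-derived one, at 10 days of age. The series had 1 group of 2 libraries, biological replicates 1 and 2, each made from 300 ng of RNA pooled from 3 females, so values of single animals cannot be told apart. No treatment, genotype or age differed between them, and the tissue label speaks of a hippocampal layer that it does not name.

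Synaptotagmins are membrane and vesicle proteins that carry a pair of C2 domains, folds that in many members bind calcium and phospholipid. Syt1 is the calcium sensor that triggers fast, synchronous release of neurotransmitter at most forebrain synapses, where it acts on the SNARE complex of syntaxin, SNAP-25 and synaptobrevin. Other members are slower sensors, act on dense-core vesicles or membrane repair, or lack part of the calcium-binding site.

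The members were expressed over a wide range, with Syt1 and Syt11 at the top and Syt2 and Syt6 at the bottom. Levels are given as TPM, a measure of transcript abundance corrected for length and scaled to a fixed total. The summed TPM of the members was 828 in replicate 1 and 886 in replicate 2, a mean of 857 ± 41.2 (SD, n = 2). That was 93.3% of the summed TPM of all 17 synaptotagmins, and Syt1 with Syt11 made up 57.8% of the members' sum. The level of Syt1 was 97.4-fold that of Syt6. The median nuclear protein-coding gene stood at a TPM of 3.79, below 9 of the members by mean.

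Calcium binding in the first C2 domain depends in part on aspartates in a loop whose codons can be read in each gene. Only this stretch was examined, so it does not show whether a member binds calcium. The coding sequences below run 5′ to 3′ along the transcript, from GENCODE M21 on build mm10, and cover the codons aligned to codons 230 to 238 of Syt1. Capitals mark the codons aligned to codons 230, 232 and 238 of Syt1. They are shown because they separate members that keep all 3 aspartate codons, GAC or GAT, from those that do not.
Syt1 (chr10:108627346-108627372, minus strand): GATtttGACcgcttctccaagcacGAC
Syt2 (chr1:134744432-134744458, plus strand): GACtttGACcgcttctctaagcatGAC
Syt3 (chr7:44393448-44393474, plus strand): GACttcGACcgcttctcgcggcatGAT
Syt5 (chr7:4542284-4542310, minus strand): GACtttGATcggttctcccgcaacGAT
Syt6 (chr3:103587675-103587701, plus strand): GACtttGACcgcttctcccgccatGAC
Syt7 (chr19:10442878-10442904, plus strand): GATtatGACcgtttcagccgcaatGAC
Syt11 (chr3:88761819-88761845, minus strand): AGCtttGATcgattctctcgggatGAC
Syt13 (chr2:92946102-92946128, plus strand): ACCtgtGACcgcttctcccgccatAGT
Syt17 (chr7:118433920-118433946, minus strand): GATtttGACaaattctcccgccacTGT
The stretch of Syt4 was aligned in the same way and is not printed. All 3 marked codons read GAC or GAT in 6 members, Syt1, Syt2, Syt3, Syt5, Syt6 and Syt7. In 3 members, Syt4, Syt11 and Syt17, 2 of the 3 did, and in Syt13 only 1 did. Both kinds were found among the higher levels, with Syt1 first and Syt11 second, and among the lower ones.

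Among the fast sensors, Syt1 was high and its close relative Syt2 was low. Syt1 (ENSMUSG00000035864.14, chromosome 10, 108497650 to 109010982) stood at a TPM of 275 in replicate 1 and 302 in replicate 2, from 24931 and 30064 expected counts. It ranked 169 of 22015 nuclear protein-coding genes by mean TPM. Syt2, a fast sensor known mostly from hindbrain, spinal and parvalbumin-positive neurons (ENSMUSG00000026452.15, chromosome 1, 134646677 to 134762593), stood at 6.33 and 9.26, from 541 and 641 counts. The mean TPM of Syt1 was 37.1-fold that of Syt2. The TPM of Syt2 spread most among the members, with an SD of 26.6% of the mean, and its counts spread less, with a scaled ratio of replicate 2 over replicate 1 of 1.16 against 1.46 for TPM. In a list of 4 markers of parvalbumin and hindbrain-projection type neurons, 2 were higher in replicate 2 and 1 lower under TMM scaling, against 1 higher and 2 lower with spike-in totals, and their summed TPM was 68.3 and 64.8. Pvalb, which marks one class of interneuron, had a log2 ratio of 1.45 (53 and 148 counts), Kcnc1 of 0.32, Nefh of 0.12, which did not pass, and Slc17a6 of −0.82. Their part in the level of Syt2 was not tested. In bulk tissue fewer cells of a type and less RNA per cell cannot be told apart.

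The members with slower kinetics or a place on other vesicles were spread from high to low. Syt7, a high-affinity sensor for asynchronous release and synaptic facilitation (ENSMUSG00000024743.16, chromosome 19, 10389090 to 10453180), stood at a TPM of 98.9 and 106. Syt5, found on dense-core and synaptic vesicles (ENSMUSG00000004961.7, chromosome 7, 4539765 to 4547541), stood at 90.0 and 88.9. These were close in level, yet Syt7 was above Syt5 in both libraries when all transcripts were counted. Over transcripts annotated as coding alone the order was reversed, with Syt7 at 79.95 and 84.88 and Syt5 at 89.99 and 88.86. Syt3, a sensor with a role in the retrieval of AMPA receptors (ENSMUSG00000030731.13, chromosome 7, 44384102 to 44400187), stood at 39.5 and 38.8. Syt6, which forms disulfide-linked dimers as Syt3 does (ENSMUSG00000027849.18, chromosome 3, 103575231 to 103645569), stood at 2.76 and 3.17, from 197 and 253 counts. It was the lowest member in both libraries.

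Of the 4 members with fewer aspartate codons in that loop, Syt11 was the most abundant. Syt11, a regulator of vesicle retrieval and membrane traffic (ENSMUSG00000068923.14, chromosome 3, 88744700 to 88775164), stood at a TPM of 196 and 218, rank 303. Syt4, known as a gene induced by neuronal activity and as a modulator of dense-core vesicles (ENSMUSG00000024261.6, chromosome 18, 31437808 to 31447406), stood at 60.8 and 47.5. It was lower in replicate 2, with an SD of 17.4% of the mean. Syt13 (ENSMUSG00000027220.2, chromosome 2, 92915098 to 92956058) stood at 38.7 and 46.8. Syt17, which lacks the membrane-spanning segment of the others (ENSMUSG00000058420.8, chromosome 7, 118380717 to 118448222), stood at 20.1 and 25.7. Its higher library was still below the lower library of Syt3.

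**Figure D1:**
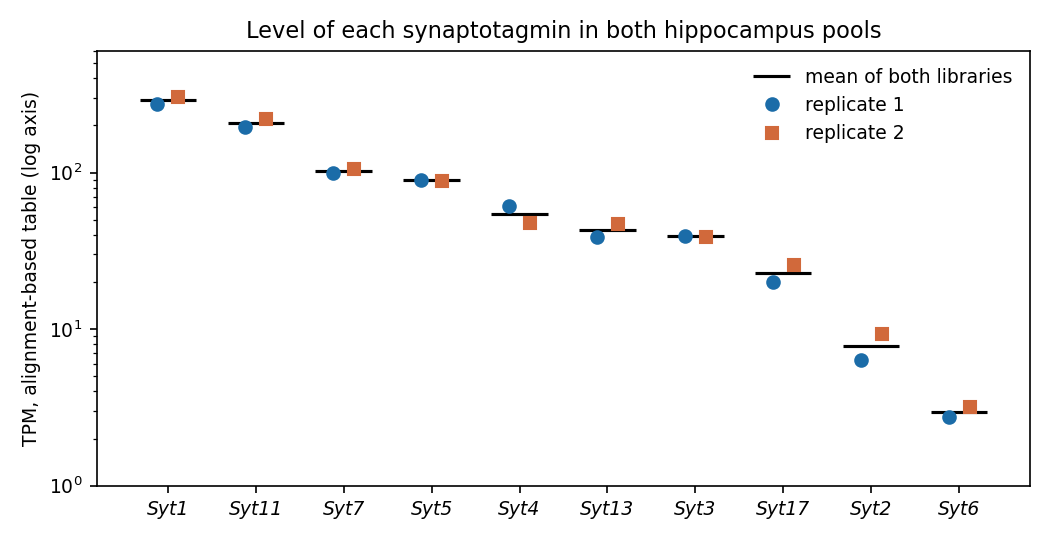
TPM of each member on a log axis, by library, with members ordered by their mean. Points are replicates 1 and 2 and bars are their means, from 289 for Syt1 down to 2.97 for Syt6.

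The order of the levels was largely the same in both libraries. Members were called apart where the log2 ratio of TPM plus 0.1 kept its sign between the libraries with a mean above 2 SD. By this description 42 of 45 pairs and 7 of 9 neighbours in the order were apart. Syt1 exceeded Syt11 by a log2 ratio of 0.48 ± 0.02 (SD, n = 2). Syt7 exceeded Syt5 by 0.19 ± 0.08, an order that did not hold over coding transcripts alone. The levels of Syt4, Syt13 and Syt3 could not be ordered. Their log2 differences were 0.34 ± 0.44 for Syt4 over Syt13, 0.46 ± 0.23 for Syt4 over Syt3 and 0.12 ± 0.21 for Syt13 over Syt3. In the read-based table, whose TPM were estimated from reads without alignments, 41 of 45 pairs were apart. By mean Syt3 moved above Syt4 and Syt13 there, though in replicate 1 it stood at 92.2 and Syt4 at 92.7. The complete coding models of Syt3 stood at 46.2 and 46.7, below Syt13 at 56.6 and 68.1 and Syt4 at 92.7 and 74.4. With its partial coding models added, Syt3 stood at 80.4 and 88.7. With 2 libraries, the smallest p an exact sign-flip test can give is 0.5, so no p is given for the order.

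Counting allowed small differences between the libraries to be resolved, and none of the members was called. Each gene's counts were compared by a two-sided exact binomial test, conditional on their sum and scaled by TMM, with Benjamini-Hochberg adjustment over 20544 genes with 10 or more counts. The test compares these libraries, not conditions, and with 1 pool per replicate it covers counting error alone. A gene was called at an adjusted p under 0.05 with an absolute log2 ratio of 1 or more, as 2.85% of all genes tested were. At an adjusted p under 0.05 alone, 7 members were higher in replicate 2, against 16.3% of all genes tested, and 1 was lower, against 11.1%. The other 2 did not pass, and all 10 had enough counts to be tested. The shares over all genes include genes with as few as 10 counts, for which small shifts cannot pass. They are thus not matched to the members in counts. The median log2 ratio was 0.23 over the members, −0.0047 over all genes tested and 0.04 over the 12072 protein-coding genes with 200 or more counts, whose SD was 0.23.

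These directions hold relative to the other genes of the libraries, since the scaling sets where 0 lies. TPM has its own scale, and for every member but Syt2 its ratio was below that of the scaled counts. For Syt5 and Syt3 the sign differed, with TPM ratios of 0.99 and 0.98 against 1.08 for the counts of each. With spike-in totals the median of the protein-coding genes moved by −0.29 to −0.25, every member moved with it, and 2 members were higher and 5 lower at an adjusted p under 0.05. The shifts below are those under TMM scaling, each with the values it took with spike-in totals where the sign changed.

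Syt17 had the largest shift of the members, with 1005 counts in replicate 1 and 1488 in replicate 2. Its log2 ratio was 0.54 with a counting error of 0.06 (exact binomial test, adjusted p = 1.17e-18), and 97.8% of the well-counted protein-coding genes shifted less. Syt13 followed, with 2930 and 3884 counts and a log2 ratio of 0.38 ± 0.04 (counting error; exact binomial test, adjusted p = 2.12e-25). These 2 members stayed higher in replicate 2 with spike-in totals, at log2 ratios of 0.25 and 0.09. Syt4 went the other way, from 4768 counts to 4086, with a log2 ratio of −0.25 ± 0.03 (exact binomial test, adjusted p = 1.10e-14), and of −0.54 with spike-in totals. It was the only member lower in replicate 2 under TMM scaling.

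The 2 most abundant members had the narrowest counting errors. Syt1 had a log2 ratio of 0.24 (exact binomial test, adjusted p = 9.85e-84), which turned to −0.047 with spike-in totals. Syt11 had 0.28 (exact binomial test, adjusted p = 2.79e-73), which turned to −0.0096. In absolute size these shifts exceeded those of 78.8% and 84.3% of well-counted protein-coding genes. Syt7 had a log2 ratio of 0.16, Syt5 of 0.11 and Syt2 of 0.22, with exact binomial adjusted p of 7.23e-11, 0.0254 and 0.0400, and with spike-in totals these turned to −0.13, −0.18 and −0.072. Syt5 and Syt2 did not pass with total counts as the scale, at log2 ratios of 0.03 and 0.13. Syt3 at 0.11, which turned to −0.18 with spike-in totals, and Syt6 at 0.33 did not pass under TMM scaling, with exact binomial adjusted p of 0.0979 and 0.0568.

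**Figure D2:**
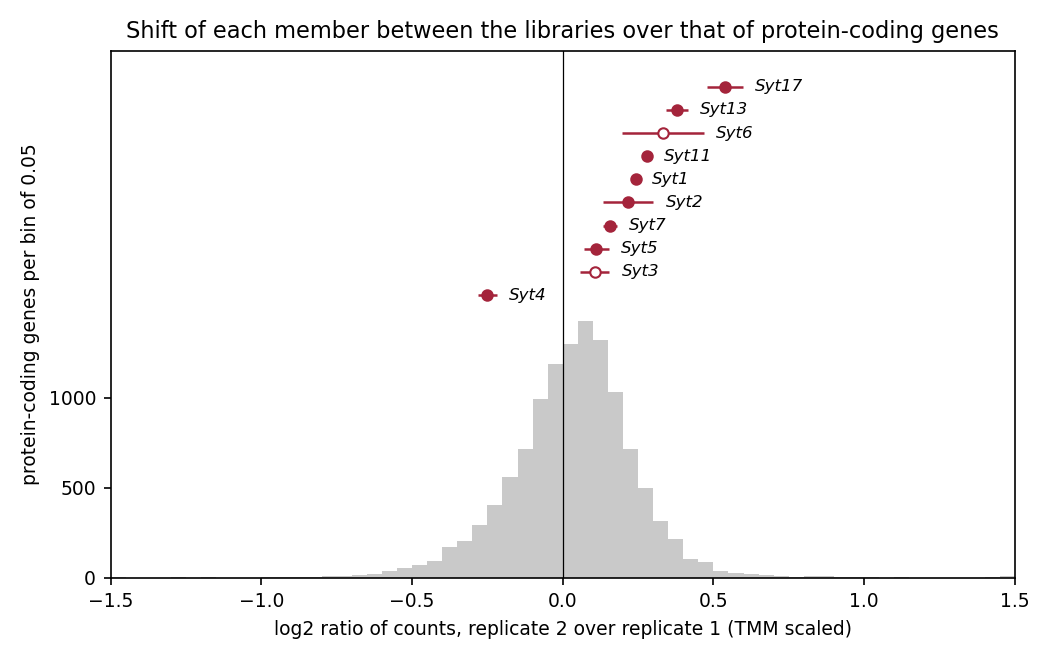
Log2 ratio of counts, replicate 2 over replicate 1, for each member (points, with the counting error as a bar; open points did not pass an adjusted p of 0.05) over the distribution for 12072 protein-coding genes (grey; values beyond the axis are in its end bins). Under TMM scaling Syt4 lies at −0.25 and the other members between 0.11 and 0.54, while spike-in totals move all points and the distribution to the left by 0.29, so that 6 of them change sign.

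Markers of some cells differed between the pools by more than the members did. All 6 markers of myelinating oligodendrocytes were called higher in replicate 2, with a median log2 ratio of 1.72, and their summed TPM went from 194 to 570. Of 6 markers listed for the thalamus and subiculum beside the hippocampus, 4 were lower in replicate 2 and 0 higher, with a median of −0.54. Slc17a6 among them, the glutamate transporter of thalamic and subicular neurons, stood at a TPM of 25.2 and 14.0. Of 7 markers of forebrain glutamatergic neurons, 4 were higher and 2 lower, with a median of 0.22. All 7 were at a TPM of 1 or more in both libraries, with Slc17a7, their vesicular transporter, at 479 and 619, and none of the markers in these 3 lists was at 0. Among astrocyte markers 5 of 6 were higher and 0 lower, with a median of 0.21. With spike-in totals the medians of the glutamatergic and astrocyte lists turned to −0.07 and −0.08, while those of the oligodendrocyte and thalamic lists kept their signs at 1.44 and −0.83. The part of these cells in the members' shifts was not tested.

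Genes of proteins that work with synaptotagmins were also mostly higher in replicate 2 under TMM scaling, a direction that did not hold with spike-in totals. Of 16 fusion partners tested (SNARE proteins, complexins and their helpers), 12 were higher and 2 lower in replicate 2 with a median log2 ratio of 0.21 under TMM scaling, which turned to −0.08 with spike-in totals. Among them, the SNARE protein Snap25 stood at a TPM of 476 and 503 and synaptobrevin Vamp2 at 398 and 427. The complexin Cplx2, which clamps and promotes fusion, stood at 301 and 323, close to Syt1. Nsf, the enzyme that takes used SNARE complexes apart, stood at 263 and 324. Of 9 vesicle and endocytic proteins, 7 were higher and 0 lower, with a median of 0.29, which turned to −0.0021 with spike-in totals. They included the vesicle protein Syp at 636 and 786, and the synapsins Syn2 at 188 and 241 and Syn1 at 178 and 194. The clathrin adaptor subunit Ap2m1, at 391 and 380, was lower by TPM but higher by scaled counts, with a log2 ratio of 0.14.

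The other 7 synaptotagmins of the annotation were low by comparison. Syt16 led them at a TPM of 32.7 and 34.6, between Syt3 and Syt17. Syt12 stood at 9.38 and 11.3, Syt14 at 10.6 and 8.43, and Syt9, another fast sensor, at 4.27 and 4.09. Syt8 had 0 counts in both libraries, which allows up to 3 counts in each. Of the 6 tested, Syt12 was higher and Syt14 lower in replicate 2 at an adjusted p under 0.05, with a median of 0.01, and with spike-in totals 1 was higher and 3 lower. Of 12 other C2-domain proteins tested, 2 were higher and 3 lower under TMM scaling, and 0 higher and 6 lower with spike-in totals. Their most abundant was Rph3a, the vesicle protein rabphilin, at 60.9 and 65.9, followed by the high-affinity sensor Doc2b at 33.5 and 32.2. After these came Esyt2, a tether between endoplasmic reticulum and plasma membrane, at 27.7 and 24.2, and Doc2a at 23.6 and 17.4. The only one called was Sytl4, from 9 counts to 24, at a TPM of 0.14 and 0.33. It passed narrowly (exact binomial test, adjusted p = 0.0498).

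The members differed in how many transcript models they had and in how their RNA was shared among them. The annotation has 56 models, from 15 for Syt7 down to 1 each for Syt4 and Syt13. The deposited share of each model in its gene, here its transcript share, is a percent of the gene's TPM. The leading model was the same in both libraries and both kinds of table for 8 of 10 members. Averaged over the members, complete coding models held 81.4 ± 0.75% (SD, n = 2).

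**Figure D3:**
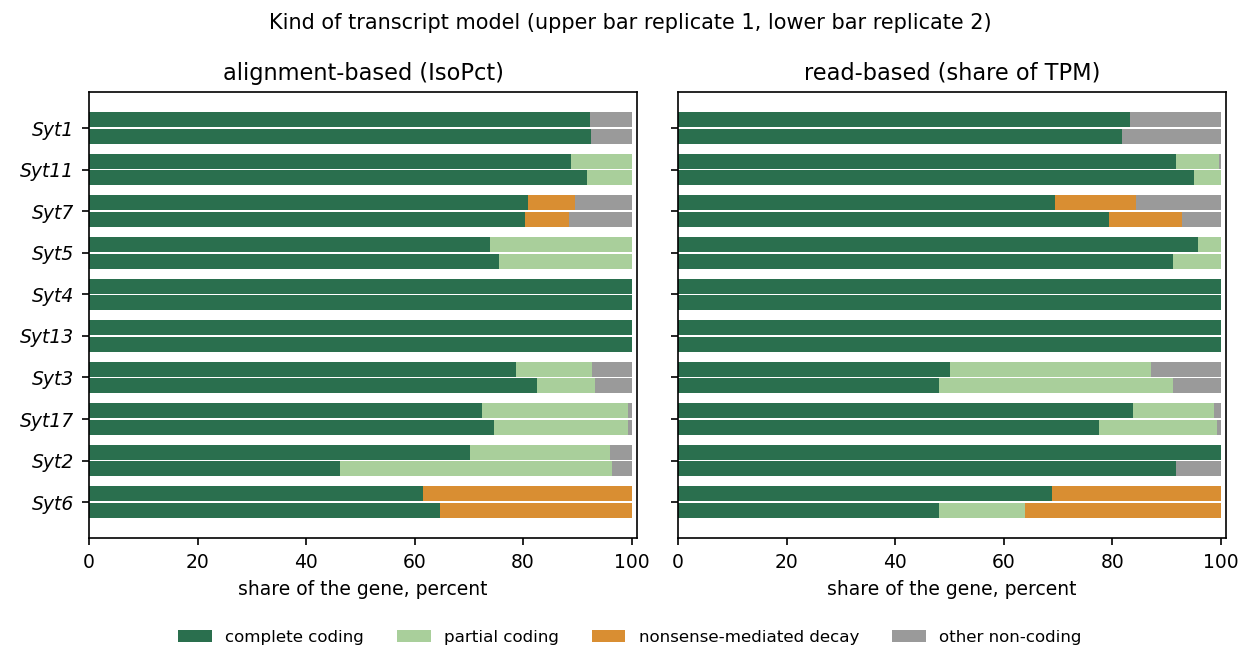
Share of each gene's TPM in complete coding, partial coding, decay and other non-coding models, for each member and library, in the alignment-based and the read-based table. In the alignment-based table Syt2 moved from 70.2% to 46.3% in complete coding models and Syt6 held 38.4% and 35.4% in decay models.

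For the most abundant members a single coding model held most of the RNA. Syt1-201, the main model of Syt1 with 421 codons, held 87.3% and 88.0% of its TPM. The non-coding models of Syt1 held 7.66% and 7.47% in the alignment-based table and 16.7% and 18.2% in the read-based table. Syt11-201, with 430 codons, held 78.4% and 76.3% in the alignment-based table and 63.3% and 64.6% in the read-based table. Syt11-203, which has the same number of codons, held 0.17% and 0.13%, but 23.6% and 19.6% in the read-based table. Syt11-202, which starts downstream and has 124 codons, held 10.3% and 15.3%, from 1446 and 2631 counts, and 4.83% and 10.9% in the read-based table. The partial model Syt11-205 held 11.1% and 8.25%, and 8.04% and 5.00% in the read-based table. Syt11 was the only member with fractional gene counts, and 7.23% of its distinct 31-base words also occur in transcripts of other genes, the highest share among the members. How far these words move its level was not tested.

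Syt7 had the most varied transcripts, and its models differ in the linker between the membrane segment and the C2 domains. The leading model Syt7-202, with 611 codons, held 45.0% and 42.8%. Syt7-201, with 403 codons and none of the 5 optional linker exons, held 20.8% and 21.9%. Syt7-203, with 687 codons, held 5.31% and 6.25%. The decay model Syt7-209, with 122 codons before its stop, held 8.71% and 7.52%, and the retained-intron model Syt7-206 held 8.43% and 7.92%. Syt7-202 stood above Syt7-201 in both libraries, at a TPM of 44.5 and 45.3 against 20.6 and 23.1. In the read-based table they held 34.5% and 36.2% against 23.3% and 30.4%.

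The sequences of 4 of the linker exons of Syt7, numbered 1 to 5 in transcript order, are shown because their use sets the length of the linker or ends the reading frame. They are on the plus strand of build mm10, from GENCODE M21. Exon 2, found in decay models, is printed only up to its first in-frame stop codon, which is in capitals.
Syt7 linker exon 1, 132 bases (chr19:10421757-10421888): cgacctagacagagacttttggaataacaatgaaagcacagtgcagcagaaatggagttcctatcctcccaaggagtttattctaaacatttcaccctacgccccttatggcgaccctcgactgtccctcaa
Syt7 linker exon 2, first 22 of 123 bases (chr19:10422395-10422416): cccgctcttcctccgtcgtTAA
Syt7 linker exon 3, 228 bases (chr19:10422785-10423012): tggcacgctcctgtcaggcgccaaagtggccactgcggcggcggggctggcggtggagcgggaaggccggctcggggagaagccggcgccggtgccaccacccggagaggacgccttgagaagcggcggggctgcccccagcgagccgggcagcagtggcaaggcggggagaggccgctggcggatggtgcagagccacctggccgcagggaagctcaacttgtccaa
Syt7 linker exon 5, 123 bases (chr19:10430338-10430460): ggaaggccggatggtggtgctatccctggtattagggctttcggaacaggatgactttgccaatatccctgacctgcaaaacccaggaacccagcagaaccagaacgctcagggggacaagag
Exon 4, of 369 bases, is not printed. Each of the 5 has a length that is a multiple of 3, so leaving one out keeps the frame.

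Use of the linker exons was counted as the share of TPM over the 12 models that span this stretch. Exon 1 was present in 66.6% and 66.1%, exon 4 in 69.9% and 67.3% and exon 5 in 70.5% and 67.6%. Exon 3 was present in 20.5% and 20.0%, and exon 2, with the stop codon, in 9.51% and 8.83%. The libraries differed by less than 3 percentage points for each exon in the alignment-based table. In the read-based table exons 1, 4 and 5 were lower, at 61.0% and 57.6%, 59.6% and 55.9%, and 60.1% and 56.1%. Exon 2 was higher there, at 17.3% and 14.4%, as was exon 3, at 24.4% and 22.4%. In all 4 tables exons 1, 4 and 5 stood above exon 3, and exon 3 above exon 2.

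**Figure D4:**
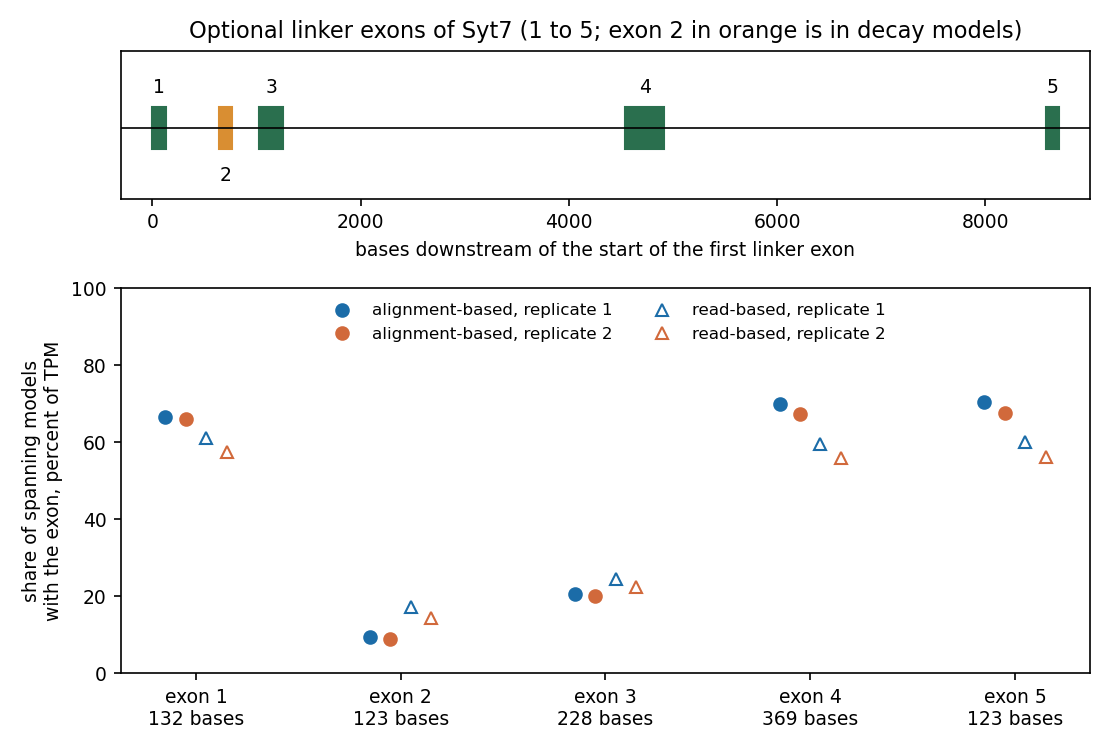
The upper panel maps the 5 optional linker exons of Syt7 by distance in bases from the start of the first, and the lower panel gives the percent of TPM over spanning models that includes each exon, by library and table. Exons 1, 4 and 5 were in 55.9% to 70.5%, exon 3 in 20.0% to 24.4% and exon 2 in 8.83% to 17.3%.

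Syt5 and Syt3, of middle level, had short partial models that took a large share of TPM from few counts. In Syt5 the model Syt5-201, with 386 codons, held 73.9% and 75.6%, and the partial model Syt5-202, of 397 bases, held 20.8% and 22.1% from 115 and 133 counts. In the read-based table Syt5-202 stood at 0% and 6.30%. In Syt3, Syt3-201 and Syt3-202 have the same 587 codons and traded places, at 41.0% and 21.5% against 37.7% and 57.2%. In the read-based table Syt3-202 led in both libraries at 45.2% and 45.1%, and Syt3-201 held 4.90% and 2.95%. The partial model Syt3-204 held 13.9% and 10.6% in the alignment-based table and 24.3% and 34.7% in the read-based table. The non-coding Syt3-206 held 7.35% and 6.75%, and 12.8% and 8.83% in the read-based table. The read-based TPM of Syt3 was 2.33-fold and 2.51-fold its alignment-based TPM, the highest ratios among the members, whose medians were 1.49 and 1.60.

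The annotated models of Syt17 begin at more than one start. Syt17-201, with 470 codons, held 55.5% and 62.0%, and Syt17-202, a partial model, held 23.8% and 24.8% but close to 0 in the read-based table. Syt17-203, with 419 codons, held 14.1% and 7.14%. The 3 models from the upstream start together held 17.6% and 13.2%, and 15.7% and 9.99% in the read-based table. Both tables thus put the larger part of Syt17 in models grouped with the downstream start, though starts themselves were not measured.

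Syt6 and Syt2, the lowest members, had the least certain shares. For Syt6 the form of 426 codons that starts downstream, Syt6-202, held 38.6% and 43.3%, and the longest form, Syt6-201 with 511 codons, 14.1% and 21.3%, from 35 and 66 counts. Its decay models held 38.4% and 35.4% together, of which Syt6-207 held 15.0% and 22.7%, Syt6-206 15.5% and 5.43% and Syt6-208 7.88% and 7.24%. In the read-based table Syt6-202 held 47.3% and 37.1% and Syt6-201 10.2% and 4.50%, so both fell there instead of rising. The decay models of Syt6 held 31.2% and 36.1% there. Of these Syt6-206 held 17.5% and 17.7%, Syt6-207 13.7% and 18.4% and Syt6-208 0. In Syt2 the partial model Syt2-203, of 383 bases, moved from 25.8% to 50.0% on 9.58 and 29.8 counts. The complete models of Syt2, Syt2-201 and Syt2-204, had a summed TPM of 4.44 and 4.29, while Syt2-203 went from 1.63 to 4.63. The higher TPM of Syt2 in replicate 2 thus lay in the partial model, which was at 0 in the read-based table, where Syt2 stood at a TPM of 7.48 and 7.96.

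Single transcripts shifted more between the libraries than genes did. Of 42 models of the members with enough counts, 7 were called by the exact binomial test, 5 higher and 2 lower in replicate 2, and 17.7% of all transcripts tested were called. They were chosen after their values were seen. Syt2-203, Syt17-204, Syt7-208, Syt3-203 and Syt7-215 were higher, and Syt5-203 and Syt6-206 were lower. Counts of models that overlap are estimates of how shared reads divide, so a model listed at 0 gives no fold here. Syt3-203 was listed at 0 and 68.8 counts, and at 0 in both libraries of the read-based table. Syt7-215 was listed at 0 and 27.4 counts, but at 268 and 193 in the read-based table, where replicate 1 was the higher. Syt6-206 also had the opposite order there, at 43.3 and 67.8 counts against 36.9 and 16.2. So did Syt7-208, at 12.9 and 0 counts there against 24.5 and 52.1, and it was among the models called there. Syt17-204 went from 34.2 to 91.0 counts, a log2 ratio of 1.43 (exact binomial test, adjusted p = 1.68e-06). It was the only one also called in the same direction in the read-based table, where 6 models of the members were called.

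Other genes overlap some of the members on the opposite strand, and use of strand in counting was not given in the sources used here. Syt4 shares 12.3% of its 31-base words with the reverse strand of Gm26658, an antisense gene at a TPM of 0.08 and 0.09. Syt6 shares 8.03% with reverse-strand transcripts, mostly those of Atg4a-ps, at 0.95 and 0.66 against 2.76 and 3.17 for Syt6. Syt7 shares 4.80%, mostly with Gm26859 at 0.08 and 0.05. Ppp1r12b overlaps the span of Syt2 on the opposite strand and stood at 30.7 and 27.5, above Syt2 at 6.33 and 9.26. Syt2 shares 0.184% of its words with reverse-strand transcripts of any gene, a count that covers annotated transcripts and not introns. Whether reads of Ppp1r12b added to Syt2 was not tested. Members shared 31-base words with each other only between Syt2 and Syt7.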

How the data were processed

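Members and gene lists were chosen with earlier results of these data known. The deposited alignment-based tables give, per the file headers, expected counts, TPM, FPKM and the percent of each gene's transcripts, and the deposited read-based tables give estimated counts and TPM. Build mm10 and annotation M21 are named per the submitters' processing notes, and programs were not given in the sources used here. Confidence bounds of TPM (a signal in the deposited files) were not used. All members were named, and their transcripts at a mean share of 5% or more, with up to 4 genes per list by mean TPM and every gene called. Expected counts were rounded. Total expected counts were 29858328 and 32275110, of which the members held 62283 and 73622, and spike-ins 0.341% and 0.393%. The pools held differently numbered animals, per the labels. Ratios used a pseudocount of 0.5 counts. Counting errors cover counting alone. Coding sequences were aligned through their translations with Biopython 1.88. Tools were edgeR 4.0.16, DESeq2 1.42.0, scipy 1.17.1 and R 4.3.3. The test was tested on simulated data. No protein table was given, so the planned comparison of proteins was not run. Alternatives were other scalings, filters, pseudocounts and tables.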

Additional observations from a re-analysis of the deposited data

How the results depend on the processing

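Of 60 log2 ratios of single members under other scalings, filters and tables, 47 kept their direction and side of the threshold, and 0 members were called in any. With spike-in totals 6 reversed: Syt1 to −0.047, Syt2 to −0.072, Syt3 and Syt5 to −0.18, Syt7 to −0.13 and Syt11 to −0.0096. The same scaling called 1276 genes in place of 585, with 6.90% of them higher in replicate 2 in place of 21.03%. Syt2 and Syt5 lost the threshold with total counts and Syt2 also with no filter, and Syt3 and Syt6 gained it with DESeq2 size factors and in the read-based table. Between 6 and 10 members passed an adjusted p of 0.05 across these settings. The summed TPM of the members was 1347 in the read-based table, 1912 over protein-coding genes, 811 over coding transcripts and 598 as FPKM, and 828 to 886 with either library left out. The mean share of complete coding models was 82.8% in the read-based table, 92.6% of expected counts, and 80.8% to 81.9% with either library left out. Over protein-coding genes the TPM of every member was 2.23-fold its main value, a change of scale. The causes of the other differences were not tested. The order kept 41 or 42 pairs apart. No paired analysis was possible because the series has 1 group. Depth limits Syt6, Syt2 and models under 100 counts most.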
